A study of Mus musculus with 20 samples.

Results

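Abdominal aortas of mice given angiotensin II (AngII) were set against those of mice given saline, with both Rab22a genotypes in 1 model. All 20 libraries of the series entered, 10 from AngII-treated and 10 from saline-treated mice, so the choice of libraries used no measured value. The AngII arm held 5 Rab22a knockout mice (KO+AngII) and 5 wild type mice (WT+AngII). The saline arm held 5 Rab22a knockout mice (KO+NS) and 5 wild type mice (WT+NS). The animals were of the C57BL/6 strain and received AngII at 500 ng/kg/min or saline for 14 days. The labels call the control genotype Rab22 WT. Total RNA was depleted of ribosomal RNA and sequenced, and 1 table of FPKM values per library was used (fragments or reads scaled by transcript length and by the size of the library). Going by its title, the study asked whether loss of Rab22a, a small GTPase of endosomal traffic, protects against AngII hypertension. The comparison described here takes the AngII effect that is common to mice with and without Rab22a, with genotype as an additive term. The knockout is therefore carried by 5 of the 10 mice in each arm.

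AngII is the effector peptide of the renin-angiotensin system. It acts on vascular smooth muscle mainly through the type 1 receptor, a Gq-coupled receptor that mice encode in the genes Agtr1a and Agtr1b. In arteries it causes contraction, raises pressure and so wall stress, and over days drives growth of the wall and deposition of extracellular matrix, in part through transforming growth factor beta (TGF-beta). Extracellular matrix here covers collagens and elastic fibres, the enzymes that process and crosslink them, and matricellular proteins, which are secreted into the matrix and act on cells more than they bear load.

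The values of each library corresponded to about 68700000 to 77400000 reads. At least 1 FPKM was reached by 12504 to 14280 genes in AngII libraries and by 13128 to 14342 genes in saline libraries, with a median of 13897 under AngII and 13932.5 under saline (exact permutation test within genotype, two-sided, p = 0.524, 63504 arrangements). Smooth muscle identity markers were present in all 20 libraries, with the smooth muscle myosin heavy chain Myh11 between 196 and 393 FPKM under AngII and between 126 and 401 FPKM under saline. The targeted gene matched the genotype labels at the level of transcripts. The main protein-coding Rab22a transcript, ENSMUST00000029024, was at most 0.00563 FPKM in the 10 knockout libraries and between 1.87 and 8.62 FPKM in the 10 wild type libraries. A transcript annotated for nonsense-mediated decay, ENSMUST00000142820, ran from 7.43 to 11.1 FPKM in knockout and from 0.162 to 3.61 FPKM in wild type libraries. Summed over all its transcripts, Rab22a stood at 8.54 ± 2.17 FPKM under AngII and 8.78 ± 2.34 FPKM under saline (SD, n = 10 each), a log2 difference of -0.03.

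No single gene was separated from the spread between mice. Limma on log2(FPKM + 1) called 0 of 15010 genes higher (0%) and 0 lower (0%) at a Benjamini-Hochberg adjusted p under 0.05, and the smallest adjusted p was 0.312. At an unadjusted p under 0.05, 336 genes were higher (2.24%) and 182 lower (1.21%) under AngII. If no gene differed, a share of about 0.05 would reach that level over both directions together, which is more than was seen. Limma-voom on whole reads recovered from the FPKM values also called 0 genes, with 292 higher and 189 lower at an unadjusted p under 0.05. In 1 gene, Tnfrsf11b, all 10 AngII libraries lay above all 10 saline libraries (0.00666%), and in 0 genes below them (0%). Over all genes tested the median log2 difference was -0.02, and 42.8% of genes lay above 0. The labels do not say more of the mice than their numbers, so the p-values measure the spread between these samples. All differences below are AngII minus saline on the log2(FPKM + 1) scale, which understates the change of genes with low values, and a gene said to be higher or lower did not pass the test across genes.

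Among the genes of the smallest p on the higher side, 7 are described. Fn1, fibronectin (ENSMUSG00000026193, chromosome 1 from 71585520 to 71653200, minus strand, mm10), had a lowest, median and highest level of 82.6, 162 and 278 FPKM under AngII and of 33.5, 82.9 and 108 FPKM under saline. In 9 of 10 AngII libraries it was above every saline library, the exception being KO+AngII replicate 1. Its log2 difference was 1.04 ± 0.21 (SE; adjusted p = 0.312), with 1.06 in knockout and 1.03 in wild type mice.

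Ccn2, connective tissue growth factor, is a matricellular protein induced by TGF-beta and by stretch. Ccn2 (ENSMUSG00000019997, chromosome 10 from 24595442 to 24598683, plus strand) stood at 136, 344 and 605 FPKM under AngII and 43.1, 132 and 215 FPKM under saline. The groups overlapped, but 8 of 10 AngII libraries exceeded every saline library. The log2 difference was 1.35 ± 0.29 (SE; adjusted p = 0.312). Eln, tropoelastin, the core protein of elastic fibres (ENSMUSG00000029675, chromosome 5 from 134702593 to 134747323, minus strand), stood at 109, 303 and 556 FPKM under AngII and 41.1, 135 and 182 FPKM under saline. All AngII libraries except KO+AngII replicate 1 lay above the highest saline library. The log2 difference of Eln was 1.27 ± 0.27 (SE; adjusted p = 0.312).

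The other 4 of these genes cover a matricellular protein, a receptor, a transcription factor and a protein of fat cell differentiation. Ccn5, a relative of Ccn2 known from smooth muscle as a growth inhibitor, stood at 14.1, 46.6 and 131 FPKM under AngII and 7.47, 19.95 and 29.7 FPKM under saline (log2 difference 1.22 ± 0.27, SE; adjusted p = 0.372). Tnfrsf12a, the receptor of the cytokine TWEAK, stood at 31.8, 48.0 and 87.6 FPKM under AngII and 15.2, 30.5 and 41.1 FPKM under saline (0.92 ± 0.20, SE; adjusted p = 0.312). Scx, scleraxis, a transcription factor of tendon that drives collagen genes, was low in every library, at 2.76, 5.40 and 11.8 FPKM under AngII and 0.752, 2.44 and 3.70 FPKM under saline (1.01 ± 0.21, SE; adjusted p = 0.312). For each of these 3 genes 8 of 10 AngII libraries exceeded every saline library. Medag, known from adipocyte differentiation, had the narrowest groups, at 9.495, 12.6 and 14.1 FPKM under AngII and 6.17, 8.88 and 10.2 FPKM under saline (0.48 ± 0.10, SE; adjusted p = 0.312).

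**Figure D1:**
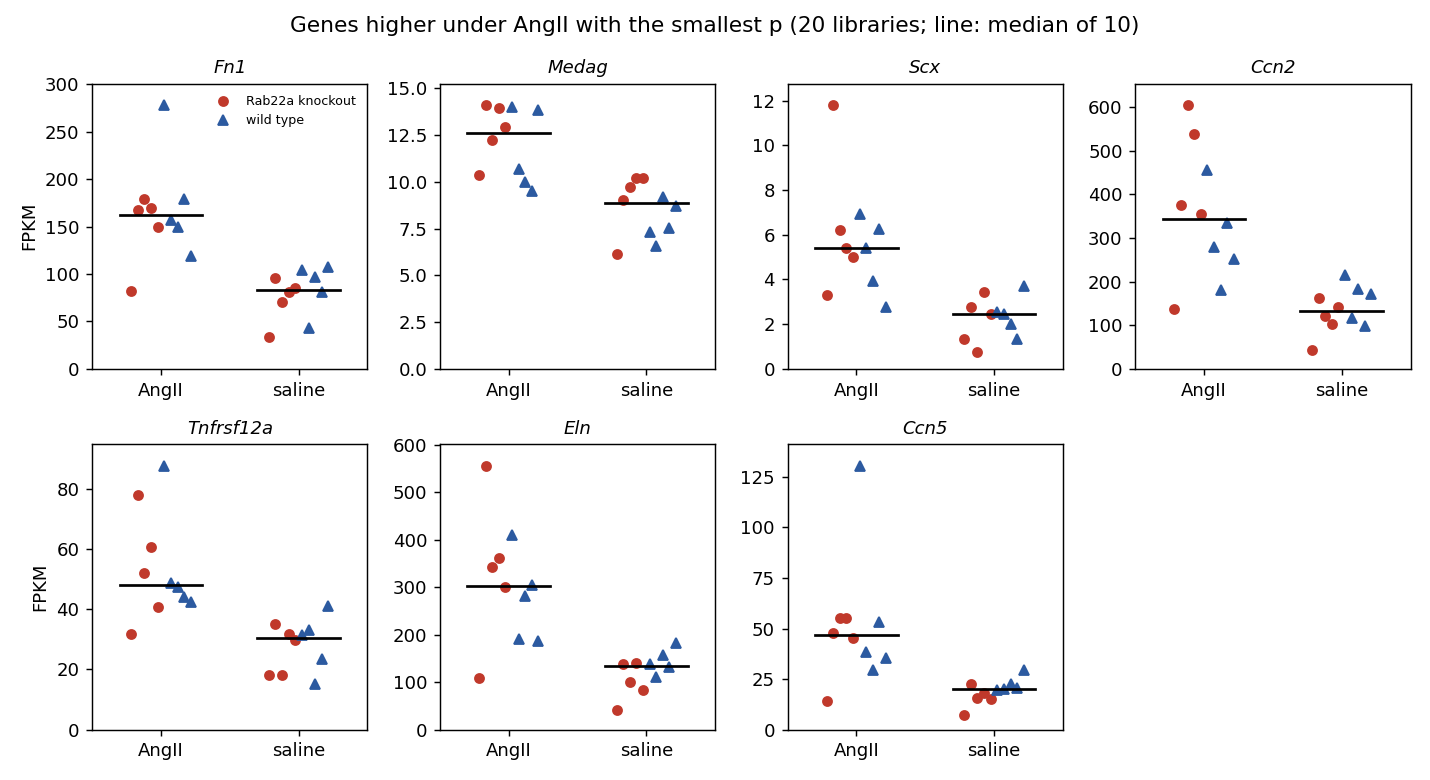
FPKM of 7 genes in each of 20 libraries, AngII left of saline, with circles for Rab22a knockout and triangles for wild type mice and a line at the median of 10. In each gene the AngII median lies above the saline median and the groups overlap; for Fn1 the medians are 162 FPKM under AngII and 82.9 FPKM under saline.

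Genes of the extracellular matrix stood higher under AngII as a body. Of 115 tested members of 8 matrix lists, 100 had a positive difference (87.0%, against 42.8% of all genes tested), and their median log2 difference was 0.32. At an unadjusted p under 0.05, 47 members were higher (40.9%, against 2.24% of all genes) and 1 was lower. None of the 115 passed over all genes. In 76 members the difference was positive in both genotypes, and in 5 it was negative in both; over all genes these shares were 18.7% and 26.4%. The lists overlap in cells of origin and the members share the same libraries, so their counts are no independent tests. The lists were also chosen with earlier results of these data known, so the shares describe the lists and are no independent support. In bulk tissue a higher share of the cells that make a transcript and more of it per cell cannot be told apart.

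Matricellular proteins stood furthest from 0. All 16 tested members were higher, 13 of them at an unadjusted p under 0.05 and 13 in both genotypes, and the median log2 difference was 0.84. Postn, periostin, a protein of remodelling matrix (ENSMUSG00000027750, chromosome 3 from 54361109 to 54391037, plus strand), stood at 120, 171 and 321 FPKM under AngII and 35.9, 92.9 and 135 FPKM under saline. Every AngII library was above the saline median and 7 were above every saline library. Its log2 difference was 1.03 ± 0.23 (SE; adjusted p = 0.406). Ccn3, which is related to Ccn2, stood at 91.2, 173 and 282 FPKM under AngII and 37.3, 95.2 and 118 FPKM under saline, with 8 of 10 AngII libraries above every saline library. Thbs1, thrombospondin 1, which activates latent TGF-beta, stood at 6.11, 14.3 and 23.6 FPKM under AngII and 4.00, 6.36 and 8.83 FPKM under saline. Spp1, osteopontin, and Tnc, tenascin C, were low transcripts, with medians of 4.54 and 5.89 FPKM under AngII and of 2.29 and 3.14 FPKM under saline. Sparc, osteonectin, had the highest FPKM of the list, at 775, 1088 and 1438 FPKM under AngII and 59.4, 789 and 990 FPKM under saline. Its lowest saline value came from WT+NS replicate 2. The smallest differences of the list were those of the thrombospondins Thbs2 (0.23) and Thbs3 (0.31).

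In the elastic fibre list 17 of 20 members were higher (median 0.30; 8 at an unadjusted p under 0.05, 14 in both genotypes). Besides Eln these included fibre-associated glycoproteins and the enzymes that crosslink elastin and collagen. Lox, lysyl oxidase, stood at 20.7, 29.7 and 71.9 FPKM under AngII and 8.37, 22.5 and 28.7 FPKM under saline, a log2 difference of 0.77 ± 0.24 (SE; adjusted p = 0.743). Its relative Loxl1, which is needed for elastic fibre renewal in mice, stood at 27.8, 50.8 and 86.9 FPKM under AngII and 14.7, 30.8 and 43.2 FPKM under saline (0.76 ± 0.19, SE; adjusted p = 0.419). Fbln5, fibulin 5, which tethers tropoelastin to microfibrils, stood at 39.2, 61.5 and 104 FPKM under AngII and 16.6, 41.0 and 48.8 FPKM under saline (0.63 ± 0.19, SE; adjusted p = 0.733). For Loxl1 and Fbln5 7 of 10 AngII libraries lay above every saline library, and for Lox 5 did. The microfibril proteins Mfap4 and Mfap5 had log2 differences of 0.85 and 0.90, and fibrillin 1, Fbn1, had 0.27. The 3 members with a negative difference were Ltbp3, Loxl2 and Ltbp4. Ltbp3 was listed at 0 in libraries of both arms and reached 33.7 FPKM under AngII and 28.2 FPKM under saline in others, and Loxl2 spanned 0.349 to 11.1 FPKM under AngII and 0.288 to 8.87 FPKM under saline.

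Among fibrillar collagens 5 of 8 tested members were higher, 3 of them at an unadjusted p under 0.05 (median 0.32). Col3a1 stood at 245, 449.9 and 688 FPKM under AngII and 94.6, 244 and 358 FPKM under saline, a log2 difference of 0.80 ± 0.24 (SE; adjusted p = 0.717). Col1a1, the alpha 1 chain of type I collagen, stood at 166, 351 and 513 FPKM under AngII and 81.8, 243 and 313 FPKM under saline (0.75 ± 0.24, SE; adjusted p = 0.797). All 10 AngII libraries for Col3a1 and 9 for Col1a1 lay above the saline median. Col1a2, the partner chain of Col1a1, had listed levels of 3.91, 10.2 and 30.3 FPKM under AngII and 3.68, 12.04 and 236 FPKM under saline. The highest saline values, 236 FPKM in KO+NS replicate 4 and 179 FPKM in a second saline library, stood far above the other 18 libraries, and the log2 difference was -0.66 ± 0.69 (SE). Col5a2 likewise ran from 0.328 to 61.7 FPKM under AngII and from 0.344 to 28.3 FPKM under saline. Col1a2, Col5a2, Ltbp3 and Loxl2 were picked out after their values were seen, and why their levels jump between libraries was not tested. Gene levels here are sums over annotated transcripts, so reads that the deposited tables give to models without annotation are missing from them, and the listed levels of these 4 genes may be incomplete.

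All 9 nonfibrillar vascular collagens were higher (median 0.47), 6 of them at an unadjusted p under 0.05. Col18a1, whose end is the antiangiogenic fragment endostatin, had a log2 difference of 0.68 ± 0.26 (SE), Col6a3, a chain of microfibrillar type VI collagen, 0.67 ± 0.25 (SE), and Col8a1, a collagen of remodelling arteries, 0.54 ± 0.20 (SE). The adjusted p of each was 1.00. Col8a1 had 0.98 in knockout and 0.10 in wild type mice, Col18a1 0.95 in knockout and 0.40 in wild type. Col6a3 had 0.85 in knockout and 0.49 in wild type mice. Basement membrane genes were nearer to 0, with 10 of 15 higher and a median of 0.08, or 0.02 without KO+NS replicate 1. Within them the type IV collagen chains Col4a1 (0.31 ± 0.13, SE) and Col4a2 (0.35 ± 0.14, SE) stood apart from the laminins, of which Lama2, Lamb1, Lama4 and Lama5 were at or below 0. Col4a1 and Col4a2 lie head to head on chromosome 8 and share a promoter region.

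All 8 tested proteoglycans were higher (median 0.39). Lum, lumican, and Fmod, fibromodulin, which regulate collagen fibril assembly, had log2 differences of 0.65 ± 0.17 (SE; adjusted p = 0.490) and 0.56 ± 0.15 (SE; adjusted p = 0.571). Vcan, versican, a large proteoglycan that swells the wall, stood at 4.23, 5.86 and 8.73 FPKM under AngII and 2.14, 3.45 and 5.80 FPKM under saline, with all 10 AngII libraries above the saline median (0.54 ± 0.14, SE; adjusted p = 0.533). Dcn, decorin, was close to 0 (0.04). All 15 collagen processing genes were higher (median 0.32), 13 of them in both genotypes. They were led by Plod2, the telopeptide lysyl hydroxylase, at 7.53, 10.8 and 18.4 FPKM under AngII and 3.26, 6.96 and 9.18 FPKM under saline (0.63 ± 0.16, SE; adjusted p = 0.493). P4ha1, a prolyl hydroxylase that stabilises the collagen helix, had a difference of 0.31 ± 0.09 (SE; adjusted p = 0.695).

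Of 24 matrix proteases and inhibitors, 20 were higher (median 0.27). Timp1, an inhibitor of matrix metalloproteinases (ENSMUSG00000001131, chromosome X from 20870166 to 20874735, plus strand), stood at 5.04, 11.8 and 40.6 FPKM under AngII and 1.68, 4.94 and 6.51 FPKM under saline. All 10 AngII libraries exceeded the saline median and 8 exceeded every saline library. Its log2 difference was 1.32 ± 0.32 (SE; adjusted p = 0.419), with 1.30 in knockout and 1.33 in wild type mice. Plat, tissue plasminogen activator, a protease of clot lysis, was higher as well, at 16.9, 20.6 and 28.4 FPKM under AngII and 7.77, 15.7 and 19.0 FPKM under saline (0.54 ± 0.13, SE; adjusted p = 0.419). Mmp3, stromelysin 1, stood at 17.8, 30.4 and 66.6 FPKM under AngII and 10.4, 20.4 and 26.9 FPKM under saline (0.69 ± 0.19, SE; adjusted p = 0.542). Mmp9, gelatinase B, was the 1 matrix member lower at an unadjusted p under 0.05, at 1.60, 5.02 and 6.65 FPKM under AngII and 4.15, 6.88 and 22.4 FPKM under saline. No AngII library exceeded the saline median of Mmp9. Mmp2 (0.31), Mmp14 (0.00) and Timp2 (0.04) were nearer to 0.

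**Figure D2:**
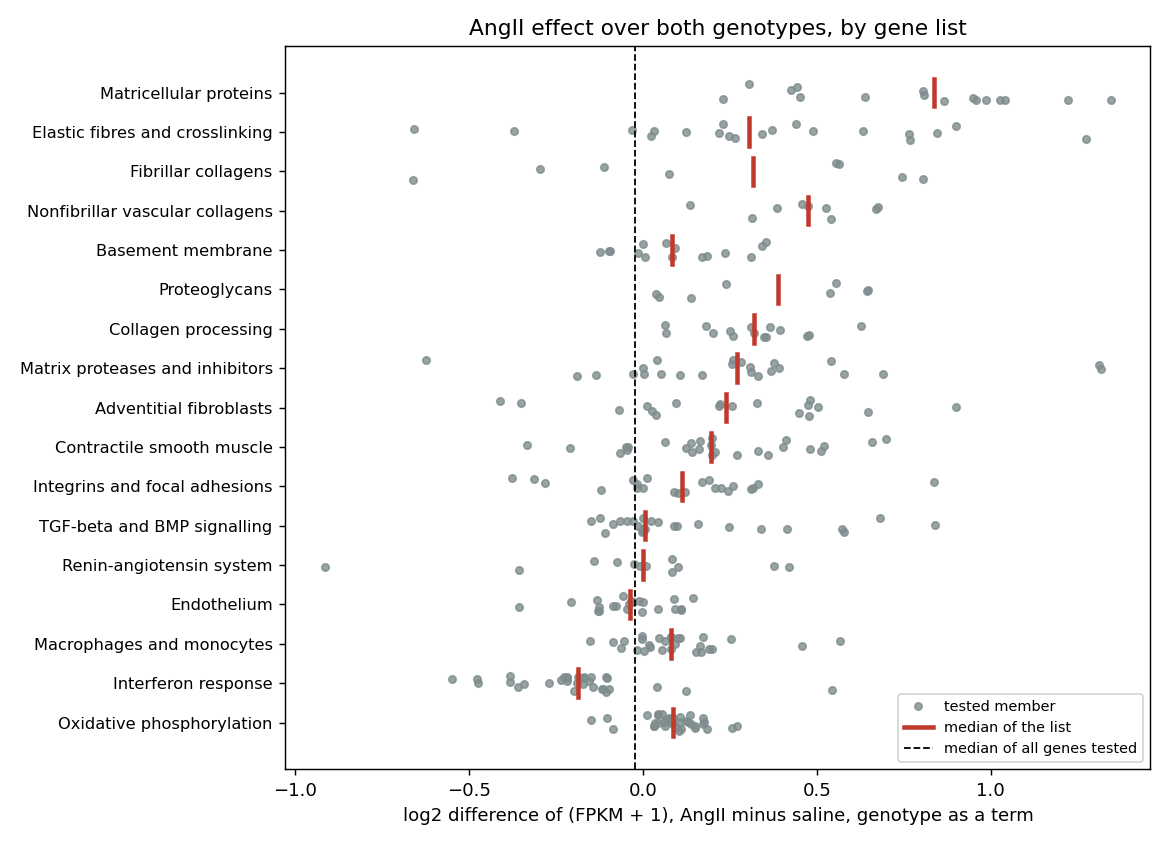
Log2 difference of (FPKM + 1), AngII minus saline with genotype as a term, for each tested member (grey points) of 17 gene lists, with the list median in red and the median of all 15010 genes tested as a dashed line at -0.02. Matricellular proteins have the highest median, 0.84, and interferon response genes the lowest, -0.19.

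The promoters of 4 matrix genes with the smallest p among those with an entry in the RefSeq table (GRCm38.p6) are shown because their genes stood higher together. Genes with a smaller p, among them Fn1, Ccn2 and Eln, are named only. Each sequence covers 250 bases before and 50 after the annotated start, 5′ to 3′ on the gene's own strand, and capitals mark the motif matches described after them. For Postn, the entry nearest to the annotated gene start of 2 entries was taken.
Postn (chr3:54360857-54361156, plus strand): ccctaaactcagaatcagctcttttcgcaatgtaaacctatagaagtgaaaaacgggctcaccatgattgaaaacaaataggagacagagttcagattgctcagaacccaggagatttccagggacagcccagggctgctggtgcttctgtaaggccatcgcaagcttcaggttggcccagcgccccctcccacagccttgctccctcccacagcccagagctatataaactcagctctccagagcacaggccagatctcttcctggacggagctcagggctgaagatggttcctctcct
Timp1 (chrX:20869916-20870215, plus strand): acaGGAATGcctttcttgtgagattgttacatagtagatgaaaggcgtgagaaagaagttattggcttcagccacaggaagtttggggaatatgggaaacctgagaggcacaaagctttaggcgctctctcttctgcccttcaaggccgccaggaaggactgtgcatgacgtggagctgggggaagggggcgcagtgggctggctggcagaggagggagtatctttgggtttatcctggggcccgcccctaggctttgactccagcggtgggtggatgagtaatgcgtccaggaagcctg
Vcan (chr13:89742463-89742762, minus strand): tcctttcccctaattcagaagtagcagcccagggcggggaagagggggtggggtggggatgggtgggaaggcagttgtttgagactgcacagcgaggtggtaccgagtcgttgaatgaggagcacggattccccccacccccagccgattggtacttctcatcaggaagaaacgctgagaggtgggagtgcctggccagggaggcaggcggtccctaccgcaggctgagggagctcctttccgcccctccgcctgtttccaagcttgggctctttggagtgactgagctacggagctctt
Mmp3 (chr9:7445572-7445871, plus strand): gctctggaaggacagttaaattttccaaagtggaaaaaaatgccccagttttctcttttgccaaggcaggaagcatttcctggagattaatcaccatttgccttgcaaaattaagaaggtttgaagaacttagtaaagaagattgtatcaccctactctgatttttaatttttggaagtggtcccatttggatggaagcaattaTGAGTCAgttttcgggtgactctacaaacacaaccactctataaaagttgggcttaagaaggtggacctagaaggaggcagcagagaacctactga

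Both strands of these promoters were searched for 6 motifs, namely AP-1 (TGANTCA), TEAD (GGAATG), the CArG box, the heat shock element HSE, the endoplasmic reticulum stress element ERSE and SMAD (CAGACAG), of which none overlaps another here. Timp1 held 1 TEAD match and Mmp3 held 1 AP-1 match, and Postn and Vcan held none in these windows. Of all 32851 promoters in the table, 7.81% hold the AP-1, 14.7% the TEAD, 1.63% the CArG, 0.603% the HSE, 0.119% the ERSE and 7.73% the SMAD motif. Of 98 promoters of 79 matrix genes the shares were 6.12%, 12.2%, 1.02%, 0%, 0% and 10.2%. A match describes letters in the window and no binding.

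Of 25 tested members of the TGF-beta and BMP pathway 14 were higher, with a median of 0.01 and 4 at an unadjusted p under 0.05. With 1 library left out the median ran from -0.02 to 0.07. Fstl3, a follistatin-like binder of activins, had a log2 difference of 0.68 ± 0.20 (SE; adjusted p = 0.695), and Fstl1 had 0.58 ± 0.18 (SE; adjusted p = 0.790). The ligand Tgfb3 stood at 20.2, 40.4 and 73.2 FPKM under AngII and 11.4, 25.8 and 44.7 FPKM under saline (0.57 ± 0.21, SE), and Tgfb2 at 2.28, 3.82 and 5.03 FPKM under AngII and 0.937, 2.72 and 3.73 FPKM under saline (0.41 ± 0.16, SE). The groups overlapped for both ligands, with 2 of 10 AngII libraries above every saline library for Tgfb3 and 6 of 10 for Tgfb2. The ligand Tgfb1 (0.01), the receptors Tgfbr1 (0.16) and Tgfbr2 (-0.12) and the signal transducers Smad2 (-0.03), Smad3 (-0.09) and Smad4 (0.00) lay near the median of all genes.

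Contractile smooth muscle genes were higher in 20 of 26 members, with a median of 0.20 and 2 at an unadjusted p under 0.05. The median was 0.39 in knockout and 0.01 in wild type mice, and without KO+NS replicate 1 it was 0.10. Cnn1, calponin, an actin-binding regulator of contraction, stood at 91.8, 174 and 345 FPKM under AngII and 41.8, 115 and 156 FPKM under saline, a log2 difference of 0.70 ± 0.23 (SE; adjusted p = 0.811). Vim, the intermediate filament vimentin, is on this list but is not particular to contractile cells. It stood at 237, 339 and 676 FPKM under AngII and 39.5, 257 and 359 FPKM under saline (0.66 ± 0.31, SE). Its lowest saline value came from WT+NS replicate 4, and the other saline libraries ran from 165 to 359 FPKM. Smooth muscle actin, Acta2, stood at 1101, 1834 and 3128 FPKM under AngII and 522, 1422 and 2088 FPKM under saline (0.40), and Myh11 was at -0.05. Identity markers of smooth muscle were higher in 8 of 9 tested members, with a median of 0.22, or 0.14 without KO+AngII replicate 4. Their median was 0.52 in knockout and 0.06 in wild type mice, and 4 of the 9 were higher in both genotypes. The mean level of that marker list ran from 6.81 to 8.05 under AngII and from 6.17 to 7.58 under saline on the log2(FPKM + 1) scale, and the part of smooth muscle content in the matrix result was not tested. Of 22 integrin and focal adhesion genes 15 were higher (median 0.11), led by Itga5, the fibronectin receptor subunit, at 19.7, 40.1 and 65.8 FPKM under AngII and 11.6, 24.9 and 32.5 FPKM under saline. Itga5 exceeded every saline library in 8 of 10 AngII libraries (0.84 ± 0.20, SE; adjusted p = 0.419). Its partner chain Itgb1 stood at -0.38, and Vcl, vinculin, at 0.26 ± 0.12 (SE). Vcl had 0.49 in knockout and 0.03 in wild type mice. The median of the list was 0.37 in knockout and -0.09 in wild type mice, and without KO+NS replicate 1 it was 0.02.

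The components of the renin-angiotensin system showed no common direction, with 6 of 12 tested members higher and a median of 0.00. Agtr1a, a type 1 receptor gene, stood at 2.97, 10.2 and 47.5 FPKM under AngII and 6.27, 10.6 and 29.4 FPKM under saline. Its medians were close, and both its lowest and its highest value were AngII libraries. The log2 difference was -0.07, with a 95% confidence interval from -0.89 to 0.74. Agtr1b, the other type 1 receptor gene, was near 1 FPKM in both arms (0.01). Renin, Ren1, peaked at 1.73 FPKM and the type 2 receptor, Agtr2, at 0.870 FPKM, and both were too low for the test. Agt, the precursor of the hormone, stood at 12.1 FPKM under AngII and 20.6 FPKM under saline in the median, and was listed at 0 in KO+AngII replicate 2. Its log2 difference was -0.92 ± 0.45 (SE), with 9 of 10 AngII libraries below the saline median and 1 above every saline library. Ace, the converting enzyme, stood at 49.1, 59.1 and 132 FPKM under AngII and 27.0, 52.0 and 63.5 FPKM under saline (0.38 ± 0.17, SE).

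Among 23 genes of receptor desensitisation and G protein signalling 10 were higher and 13 lower. Arrb1, beta-arrestin 1, which uncouples and internalises receptors, had a log2 difference of -0.38 ± 0.17 (SE), and Dusp4, a phosphatase of MAP kinases, -0.45 ± 0.19 (SE). These were the 2 members at an unadjusted p under 0.05. Of 25 vasoactive mediators and receptors 1 passed that level, Ptgs2, the inducible cyclooxygenase, at 0.510, 1.09 and 3.35 FPKM under AngII and 0.135, 0.567 and 0.913 FPKM under saline (0.45 ± 0.16, SE).

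The 8 genes of the smallest p on the lower side shared no list. Rab11fip5, an effector of Rab11 in recycling endosomes (ENSMUSG00000051343, chromosome 6 from 85334962 to 85374634, minus strand), stood at 3.23, 4.18 and 6.77 FPKM under AngII and 5.03, 10.4 and 15.9 FPKM under saline. All 10 AngII libraries lay below the saline median and 7 lay below every saline library. It was lower by a log2 difference of -0.95 ± 0.20 (SE; adjusted p = 0.312), with -0.92 in knockout and -0.97 in wild type mice. With weights for library quality in limma this gene was the 1 called, at a log2 difference of -1.12 and an adjusted p of 0.0431. Gkn3, gastrokine 3, a transcript found in arterial endothelium of mice, stood at 1.64, 3.21 and 7.61 FPKM under AngII and 3.89, 6.00 and 11.9 FPKM under saline (-0.82 ± 0.20, SE; adjusted p = 0.419). In 7 AngII libraries it was below every saline library.

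The remaining genes on the lower side were kinases, a growth regulator, a transporter and a ligand. Hipk2, a nuclear kinase, was below every saline library in 8 AngII libraries, at 0.799, 1.14 and 1.57 FPKM under AngII and 1.30, 1.61 and 2.10 FPKM under saline (-0.31 ± 0.08, SE; adjusted p = 0.542). Ksr1, a scaffold of the MAP kinase cascade, had a log2 difference of -0.79 ± 0.21 (SE; adjusted p = 0.542) at medians of 1.09 FPKM under AngII and 2.11 FPKM under saline. Tsc2, tuberin, which restrains mTOR, stood at 9.10, 10.8 and 14.6 FPKM under AngII and 10.01, 15.4 and 17.1 FPKM under saline (-0.33 ± 0.09, SE; adjusted p = 0.633). For Hipk2, Ksr1 and Tsc2 all 10 AngII libraries lay below the saline median. Slc43a1, an amino acid transporter, had -0.62 ± 0.17 (SE; adjusted p = 0.561) and Efnb1, an ephrin ligand, -0.25 ± 0.07 (SE; adjusted p = 0.600). Mea1 split within groups. It was listed at 0 in WT+AngII replicate 5, was under 1 FPKM in 6 AngII libraries and at 4.88 to 11.4 FPKM in the other 4, against 3.22 to 14.7 FPKM in the saline libraries.

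**Figure D3:**
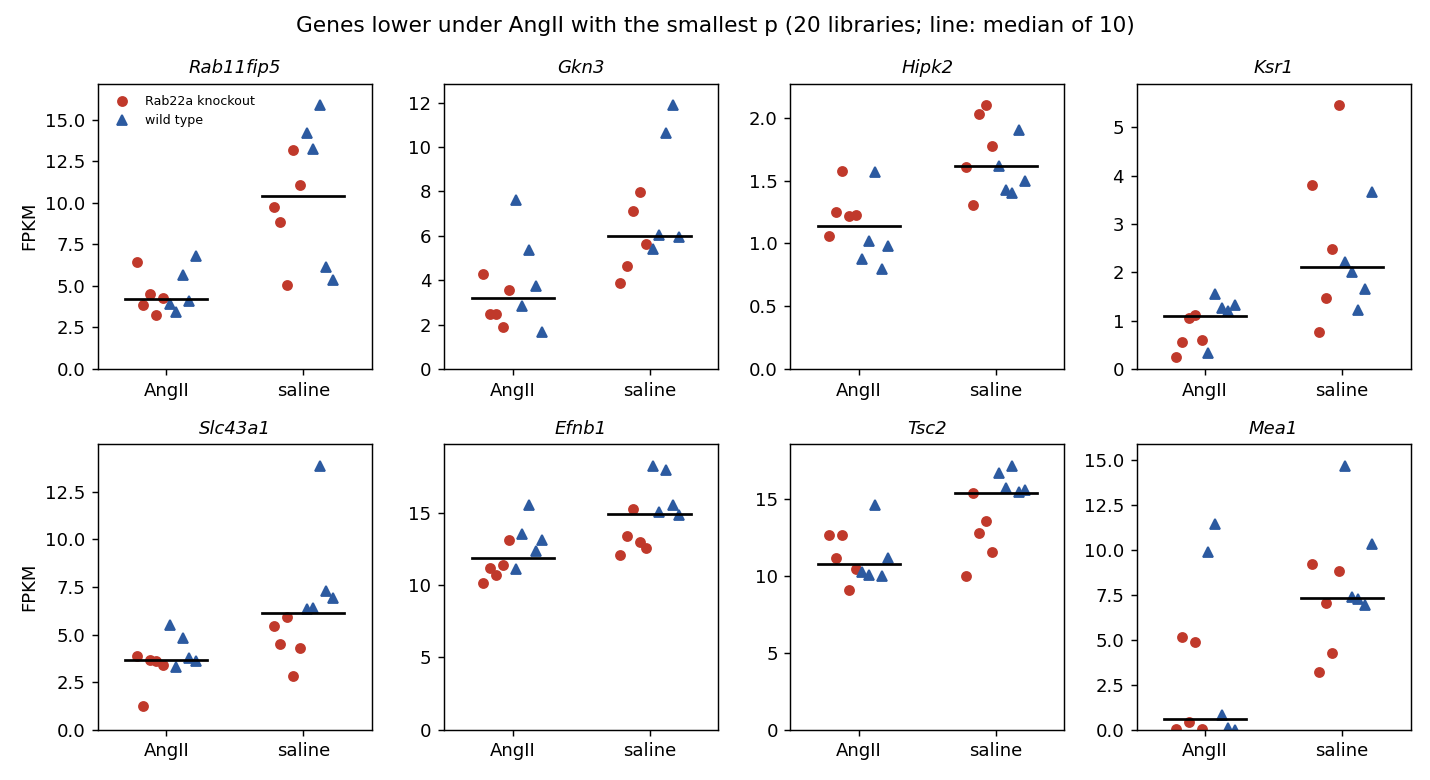
FPKM of 8 genes in each of 20 libraries, AngII left of saline, with circles for Rab22a knockout and triangles for wild type mice and a line at the median of 10. For Rab11fip5 the medians are 4.18 FPKM under AngII and 10.4 FPKM under saline, and Mea1 falls into low and high AngII libraries.

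Stress, metabolic and inflammatory lists differed less. Of 20 heat shock genes 15 were higher (median 0.08), led by the small heat shock protein Hspb1 at 90.8, 197 and 281 FPKM under AngII and 47.3, 100.3 and 286 FPKM under saline (0.80 ± 0.27, SE; adjusted p = 0.938). The highest Hspb1 value of all was a saline library. Of 26 immediate early genes, transcription factors induced within minutes of stimulation, 17 were higher (median 0.08), with Atf3 at 0.61 ± 0.25 (SE) and Ier3 at 0.34 ± 0.13 (SE). The metallothioneins Mt2 (0.74 ± 0.30, SE) and Mt1 (0.43 ± 0.19, SE), which bind metals and respond to glucocorticoids, were the 2 members of the glucocorticoid list at an unadjusted p under 0.05. The heat shock median was 0.04 without KO+NS replicate 3 and 0.16 without KO+AngII replicate 2. The immediate early median was 0.02 without WT+NS replicate 5 and 0.15 without KO+AngII replicate 1. Genes of the unfolded protein response had a median of -0.01 (12 of 27 higher). Oxidative phosphorylation (32 of 35 higher, median 0.09) and fatty acid metabolism (28 of 35, 0.06) had small differences, and no member at an unadjusted p under 0.05. The median of oxidative phosphorylation was 0.23 in knockout and -0.04 in wild type mice, and that of fatty acid metabolism 0.31 in knockout and -0.16 in wild type mice. Without KO+NS replicate 3 their medians were -0.02 and -0.05.

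Interferon response genes were lower in 28 of 31 members, with a median of -0.19. Their median was -0.34 in knockout and 0.02 in wild type mice. In 12 of the 31 members the difference was negative in both genotypes, against 26.4% of all genes tested. Stat2, a transcription factor of interferon signalling, was the 1 member at an unadjusted p under 0.05, at 3.81, 7.50 and 10.1 FPKM under AngII and 5.40, 8.64 and 16.8 FPKM under saline (-0.47 ± 0.21, SE). The level of the list was highest in KO+NS replicate 1, at 4.38 against 2.61 to 3.50 in the AngII libraries, and without that library the median was -0.08. Cell cycle genes were lower in 30 of 32 members (median -0.12), but only 3 members were lower in both genotypes. Their median was -0.42 in knockout and 0.15 in wild type mice. Over both genotypes it was 0.12 without KO+NS replicate 1, the highest library, and -0.28 without WT+AngII replicate 5. Of the 2 members above 0, Mcm6, a subunit of the replicative helicase, was at 0.06, and Anln, anillin, a protein of cytokinesis, stood at 4.85 FPKM under AngII and 3.96 FPKM under saline in the median (0.46 ± 0.21, SE). Anln had 0.85 in knockout and 0.07 in wild type mice. Clock, the circadian activator, had a difference of -0.39 ± 0.15 (SE), with -0.11 in knockout and -0.68 in wild type mice. Endothelial markers were close to 0 (6 of 22 higher, median -0.04), with the tight junction protein Cldn5 at -0.36 ± 0.16 (SE). Adventitial fibroblast markers were higher in 15 of 18 members, with a median of 0.24 and 6 at an unadjusted p under 0.05, among them Medag and Lum; without KO+NS replicate 1 the median was 0.15.

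The AngII effects of the genotypes were set side by side, as they share no library. In knockout mice the 115 matrix members had a median of 0.44 and in wild type mice 0.22. The knockout saline arm holds KO+NS replicate 1, the library lowest in every matrix list. Over both genotypes the matrix median was 0.32, and 0.25 without that library. The knockout medians were not computed without it. Matricellular proteins had a median of 0.96 in knockout and 0.67 in wild type mice, elastic fibre genes 0.50 in knockout and 0.20 in wild type, and fibrillar collagens 0.82 in knockout and 0.14 in wild type. Among fibrillar collagens, Col1a1 had 0.83 in knockout and 0.66 in wild type mice, and Col3a1 0.92 in knockout and 0.69 in wild type. Col5a1 lay further apart, at 0.81 in knockout and 0.30 in wild type. These medians also take in Col1a2 and Col5a2, whose listed levels may be incomplete. Nonfibrillar vascular collagens had a median of 0.84 in knockout and 0.23 in wild type, proteoglycans 0.60 in knockout and 0.16 in wild type, and basement membrane genes 0.29 in knockout and -0.01 in wild type. Matrix proteases and inhibitors were close, at 0.29 in knockout and 0.25 in wild type. The median of collagen processing genes lay the other way, at 0.25 in knockout and 0.35 in wild type. Its members were mixed, with P4ha1 at 0.16 in knockout and 0.47 in wild type, but Plod2 at 0.91 in knockout and 0.35 in wild type. Across the 15010 genes the log2 differences of knockout and wild type mice had a Pearson correlation of -0.06, and across the 115 matrix members one of 0.20; genes are not independent replicates and share libraries within a genotype. Postn had a log2 difference of 1.58 ± 0.28 in knockout and 0.48 ± 0.28 in wild type mice (SE), and Lox had 1.33 ± 0.29 in knockout and 0.21 ± 0.29 in wild type mice. Ccn2 stood at 1.77 ± 0.39 in knockout and 0.93 ± 0.39 in wild type mice (SE), and Eln at 1.67 ± 0.38 in knockout and 0.88 ± 0.38 in wild type mice. For Postn the knockout effect minus the wild type effect was 1.10 ± 0.40 (SE; limma interaction, adjusted p = 0.995). Fn1, Timp1 and Rab11fip5, by contrast, had nearly equal values in both genotypes. The interaction term, which tests the difference itself, called 0 of 15010 genes (limma, smallest adjusted p = 0.995). An unadjusted p under 0.05 was reached by 501 of the 15010 genes and by 11 of the 115 matrix members. That share was larger among the matrix members than over all genes. Limma fits of the 10 knockout and of the 10 wild type libraries alone each called 0 genes. At an unadjusted p under 0.05 they gave 223 higher and 140 lower in knockout and 341 higher and 247 lower in wild type mice. In each fit both directions together held a share below 0.05 of the 15010 genes.

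**Figure D4:**
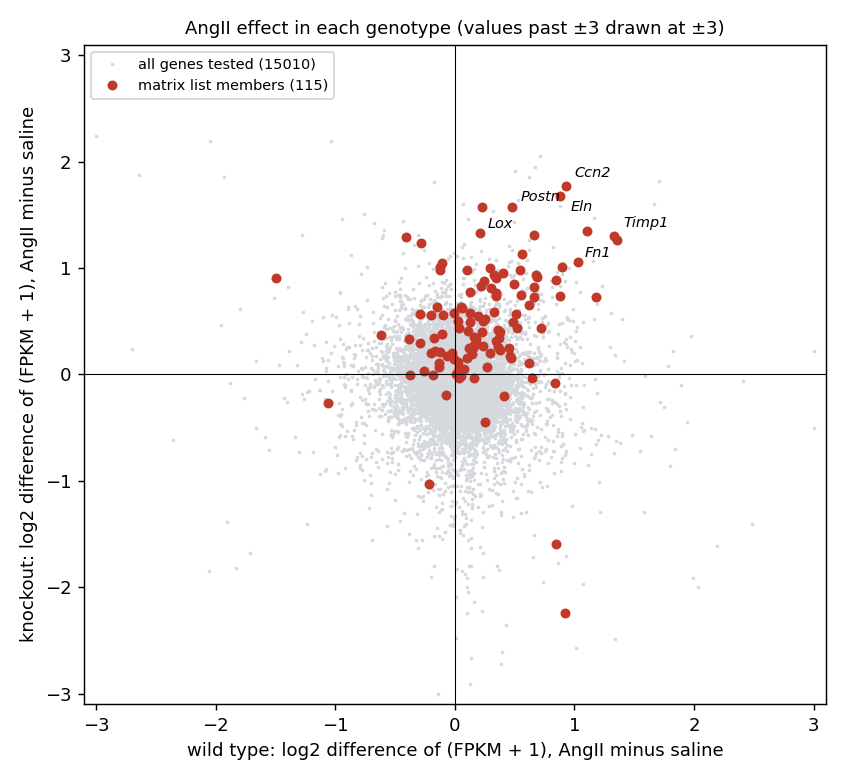
Log2 difference of (FPKM + 1), AngII minus saline, in Rab22a knockout mice (vertical axis) and wild type mice (horizontal axis), for all 15010 genes tested in grey and 115 matrix members in red. Named are Fn1, Ccn2, Eln, Postn, Timp1 and Lox. The 76 matrix members at the upper right were higher in both genotypes; Postn and Lox lie near the vertical axis, at 0.48 and 0.21 in wild type mice.

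The libraries also varied in tissue content. KO+NS replicate 1 had the lowest level of the 20 libraries in each of the 8 matrix lists. Its matricellular level was 3.60, against 3.88 to 4.48 in the other saline libraries and 4.34 to 5.52 in AngII libraries. Without it 92 of 115 matrix members were higher, with a median of 0.25 and 43 at an unadjusted p under 0.05. Neuronal and Schwann cell markers were lower in 22 of 25 members (median -0.38), and their level ran from 1.25 to 6.26 under AngII and from 4.20 to 6.07 under saline. The median of the nerve list was -0.92 in knockout and 0.08 in wild type mice, and over both genotypes it was -0.02 without KO+AngII replicate 2 and -0.57 without KO+AngII replicate 1. The low values were 1.25 in KO+AngII replicate 2 and 2.60 in KO+AngII replicate 4, and Th, tyrosine hydroxylase of sympathetic nerves, and Nefl were listed at 0 in the first of them. Without these 2 libraries 92 of 115 matrix members were higher, with a median of 0.24 and 32 at an unadjusted p under 0.05. Skeletal muscle markers were lower in 18 of 20 members (median -0.70), and their level spanned 0.774 to 6.98 under AngII and 0.651 to 7.72 under saline. The median of the muscle list was -1.41 in knockout and -0.00 in wild type mice, and over both genotypes it was -1.24 without KO+AngII replicate 1 and -0.35 without WT+NS replicate 5. T and NK cell markers spanned 0.603 to 4.09 under AngII and 0.725 to 4.90 under saline, and no marker of either list was at 0 in every library. With the levels of white adipocyte, skeletal muscle, B and plasma cell and nerve markers as covariates, 97 of 115 matrix members were higher, with a median of 0.26 and 43 at an unadjusted p under 0.05, and limma called 0 genes (494 higher and 443 lower at an unadjusted p under 0.05).

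**Figure D5:**
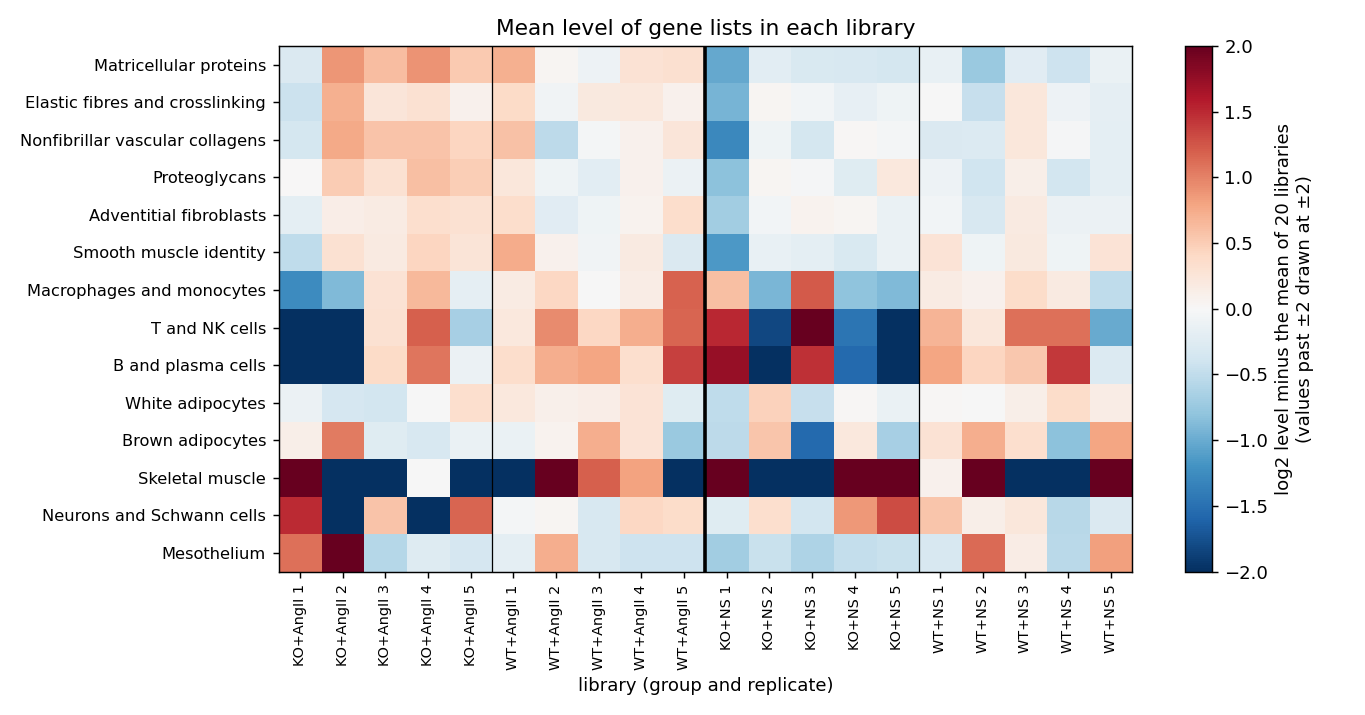
Mean level of 14 gene lists in each library, as log2(FPKM + 1) minus the mean of the 20 libraries (values past 2 drawn at the end of the colour scale), with AngII libraries left of the thick line and saline libraries right of it. The matricellular row is above its mean in 8 of 10 AngII and below it in all 10 saline libraries, while lymphocyte, skeletal muscle and nerve rows vary between single libraries.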

How the data were processed

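RNA sequencing of 20 abdominal aortas was analysed from 1 deposited table per library. The authors deposited FPKM values for 126719 transcript models, with mm10 and limma named per the submitters' processing notes. For the aligner, assembler and counter the names were not given in the sources used here. The unit was taken from the values: 99.5% to 99.6% of low values, times transcript length, came to a whole read number with a tolerance of 0.1 read. Since FPKM is relative to a library total, each value depends on all other transcripts. Of 110082 Ensembl transcripts, 109913 matched GENCODE M21 and were summed to 42890 genes. The 16637 models without annotation were kept out of these sums.

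The 15010 genes that reached 1 FPKM in 5 or more libraries entered limma 3.58.1 in R 4.3.3 (trend and robust, genotype as a term) on log2(FPKM + 1), two-sided, at a Benjamini-Hochberg adjusted p under 0.05. Counting error was not modelled. The 44 gene lists and the members were chosen with earlier results of these data known. Named were the 8 genes of the smallest p in each direction (predicted loci and means under 1 FPKM passed over), up to 4 of the smallest p per list described, Rab22a and 6 renin-angiotensin genes; 1 gene of the first set is not reported here, and other members are named as examples after their values were seen. On simulated data, 32%, 77% and 96% of changes of log2 0.5, 1 and 2 were recovered, and 6% of calls were false. The simulation gave each gene independent normal noise of its own residual spread and changed 200 genes equally in both genotypes. It held no variation shared by the genes of a library, so these rates are not the power of the real comparison. Single library measures used exact permutation tests in Python 3.11.15 with scipy 1.17.1. The alternatives were 38 settings of normalization, filter, pseudocount, model, covariates and left-out libraries, 2 of them chosen after the data were seen.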

Additional observations from a re-analysis of the deposited data

Results flagged for a closer look

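In 4 groups of 5 libraries each, the values of 63 named genes were searched for a single library far from the other 4, its gap to the nearest being more than 0.71 of the group's range on the log2(FPKM + 1) scale. Of 252 groups, 24 held such a library, and chance alone gives about 1 in 20.

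High values in 1 AngII library came mostly from wild type mice. WT+AngII replicate 1 held the highest Tnfrsf12a (87.6 FPKM) and Tgfb3 (73.2 FPKM), and also a low Ksr1 (0.335 FPKM). WT+AngII replicate 3 held the highest Tsc2 of its group (14.6 FPKM), and WT+AngII replicate 2 the highest Vim (676 FPKM) and a low Rab22a (2.65 FPKM).

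Low values under AngII in knockout mice fell on KO+AngII replicate 1 for matrix genes, namely Fn1 (82.6 FPKM), Ccn5 (14.1 FPKM), Col6a3 (15.7 FPKM), Col4a1 (107 FPKM) and Col4a2 (79.1 FPKM). KO+AngII replicate 2 had a low Slc43a1 (1.23 FPKM) and Agt listed at 0 FPKM.

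Among saline libraries, KO+NS replicate 1 had low Medag (6.17 FPKM), Fstl3 (7.35 FPKM), Ier3 (9.99 FPKM) and Ace (27.0 FPKM), and KO+NS replicate 4 a low Anln (1.04 FPKM) and a high Ren1 (1.73 FPKM). WT+NS replicate 4 had low Vim (39.5 FPKM), Ier3 (8.63 FPKM) and Rab22a (2.82 FPKM). Slc43a1 was high in WT+NS replicate 3 (13.9 FPKM) and Timp1 in WT+NS replicate 5 (6.51 FPKM).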

How the results depend on the processing

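The count of called genes was 0 higher and 0 lower in 37 of 38 alternatives; library weights gave 1 lower gene, Rab11fip5, and the smallest adjusted p over all alternatives ran from 0.0431 to 1.00. Of 2351 values of named genes, 2326 kept direction and side of the threshold, and the cause of the others was not tested. The reversals concerned genes near 0. Agtr1a was 0.15 with 4 tissue covariates, 0.022 in knockout libraries alone, 0.41 without the 2 libraries lowest in nerve markers, and -0.29 to 0.14 with 1 library left out. Agtr1b was -0.0184 with a pseudocount of 0.1, -0.0157 with 2 tissue covariates, -0.032 with limma-voom, -0.0378 both in knockout libraries alone and without the 2 knockout saline libraries highest in lymphocyte and macrophage markers, and -0.0615 to 0.0793 with 1 library left out. Rab22a was 0.000571 with quantile normalization and -0.17 to 0.11 with 1 library left out. With the replicate number as a block, limma called 0 genes (311 higher and 188 lower at an unadjusted p under 0.05) and the smallest adjusted p was 0.698. The labels do not say whether the numbers pair the mice. Same-numbered AngII and saline libraries of 1 genotype had correlations from -0.52 to 0.39, over 0.1 in 4 of 10 pairs, which cannot decide it. The number of matrix members above 0 ran from 85 (wild type alone) to 104 of 115; with a filter at 5 FPKM it was 90 of 103. Without a filter on low values, 787 genes were higher and 473 lower at an unadjusted p under 0.05. The depth limits were low genes: 1 FPKM is near the pseudocount, which shrinks their differences.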

Other observations

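Tnfrsf11b, osteoprotegerin, a decoy receptor that blocks the bone-resorbing ligand RANKL and is made by smooth muscle, was the 1 gene of 15010 (0.00666%) whose AngII libraries all lay above its saline libraries. It was singled out after its values were seen. Its lowest, median and highest level was 1.99, 3.25 and 17.9 FPKM under AngII and 0.834, 1.70 and 1.97 FPKM under saline, a log2 difference of 0.94 ± 0.23 (SE; limma, adjusted p = 0.419). The lowest AngII value and the highest saline value differed by less than the spread within either arm. No gene had all AngII libraries below all saline libraries.

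Inflammatory cell markers had medians of opposite sign in the genotypes, a difference that was not tested. Macrophage markers had a median log2 difference of -0.12 in knockout and 0.34 in wild type mice, neutrophil markers -0.52 in knockout and 0.90 in wild type, and T and NK cell markers -0.32 in knockout and 0.33 in wild type. With 1 library left out, the median over both genotypes ran from -0.03 to 0.25 for macrophage and from 0.09 to 0.58 for neutrophil markers. For T and NK cell markers it ran from -0.25 to 0.28. Each upper end came without KO+NS replicate 3, so single libraries move these medians. No member of these lists passed an unadjusted p of 0.05 for AngII over both genotypes. Mesothelial markers had a median of 0.89 in knockout and -0.31 in wild type mice, and their level was highest in KO+AngII replicate 2, at 3.14.

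The unannotated transcript models, of which 8760 passed the filter, gave 0 calls in either direction (limma, smallest adjusted p = 0.726), with 174 higher and 219 lower at an unadjusted p under 0.05. Their share of the FPKM total ran from 10.6% to 12.9% under AngII and from 11.4% to 12.9% under saline (exact permutation test within genotype, two-sided, p = 0.160).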
